A study of Rattus norvegicus with 60 samples.

Results

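RNA levels in the striatum were compared between rats that ate chow with lithium chloride (LiCl) and rats that ate plain chow, the chow vehicle. The comparison takes in the 10 arrays that the labels place in these groups, 5 per group, of the 60 arrays of the series. All were Affymetrix rat arrays hybridised with RNA from snap-frozen, microdissected tissue of rats whose strain is given as SD. The LiCl group received 0.2% LiCl in its chow for 21 days, and the chow vehicle group received chow without it over the same time. The other 10 striatum arrays came from rats injected under the skin once daily with lamotrigine at 30 mg/kg, or with its vehicle (5 arrays each), and the cortex and the hippocampus were sampled in the same 4 groups. A tissue field in the labels says mouse and another speaks of constant delivery for every sample, whereas the organism, the strain, the array and the design text give rat and daily injection. Ages, sexes and lithium levels in blood are not given in the sources used here. Each array reports 31042 probe sets, which are groups of short probes for 1 transcript, after 57 control probe sets were set aside. All levels below are log2 intensities and all changes are LiCl minus chow vehicle on that scale.

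The striatum is the input nucleus of the basal ganglia. Most of its neurons are inhibitory medium spiny neurons, which divide into a direct pathway class carrying the dopamine receptor Drd1 with substance P (Tac1) and dynorphin (Pdyn), and an indirect pathway class carrying Drd2, the adenosine receptor Adora2a and enkephalin (Penk). Lithium is a mood stabilizer that inhibits inositol monophosphatase, an enzyme that recycles inositol for phosphoinositide signalling, and glycogen synthase kinase 3, a brake on Wnt signalling. The comparison asks which RNA levels in this region differ after lithium feeding.

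The dissections carried the markers of striatum. Drd1 averaged 11.89 ± 0.40 in LiCl striatum and 12.06 ± 0.09 in chow vehicle striatum (SD, n = 5 each), against 6.52 ± 0.23 and 6.73 ± 0.61 in the LiCl and chow vehicle cortex. Penk averaged 13.39 ± 0.24 in LiCl and 13.53 ± 0.07 in chow vehicle striatum, and 9.67 ± 0.25 and 9.71 ± 0.26 in the cortex of the same groups. Both markers stood far above their cortical level in both striatum groups.

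Transthyretin, Ttr, is made in the brain mainly by the choroid plexus, the tissue in the ventricles that secretes cerebrospinal fluid, and it differed between the groups. Ttr read 14.52, 14.37, 12.07, 10.72 and 11.53 in LiCl replicates 1 to 5, against 10.77, 7.58, 9.05, 8.26 and 8.39 in chow vehicle replicates 1 to 5. LiCl replicates 1 and 2 stood highest, and LiCl replicate 4 lay just below chow vehicle replicate 1. The mean difference was 3.83 (exact permutation test over the 252 splits of the 10 arrays, two-sided, p = 0.0159, where the smallest possible p is 0.00794, and 0.0159 after adjustment over the 2 measures tested, and adjusted p = 0.296 over all probe sets in limma). Without LiCl replicates 1 and 2 the difference was 2.63 (exact p = 0.0536). The 16 measured genes of a choroid plexus list averaged 9.29, 8.92, 6.44, 6.09 and 6.33 in LiCl replicates 1 to 5, against 6.31, 5.71, 5.96, 5.86 and 5.95 in the chow vehicle replicates, a mean difference of 1.45 with the same exact p. All 16 members had a higher mean in LiCl. The folate receptor Folr1 read 11.03 and 10.33 in LiCl replicates 1 and 2 but 5.98 to 6.82 in the other 3, against 5.85 to 6.59 in chow vehicle. The tight junction gene Cldn2, the co-receptor gene Kl and the transcription factor gene Otx2 had the same pattern, while the potassium channel gene Kcnj13 read 5.58 to 5.86 in LiCl against 5.36 to 5.81 in chow vehicle. High Ttr was also read outside the LiCl group, where 1 injection vehicle array (14.66) and 2 lamotrigine arrays (14.49 and 14.50) reached the level of LiCl replicates 1 and 2.

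**Figure D1:**
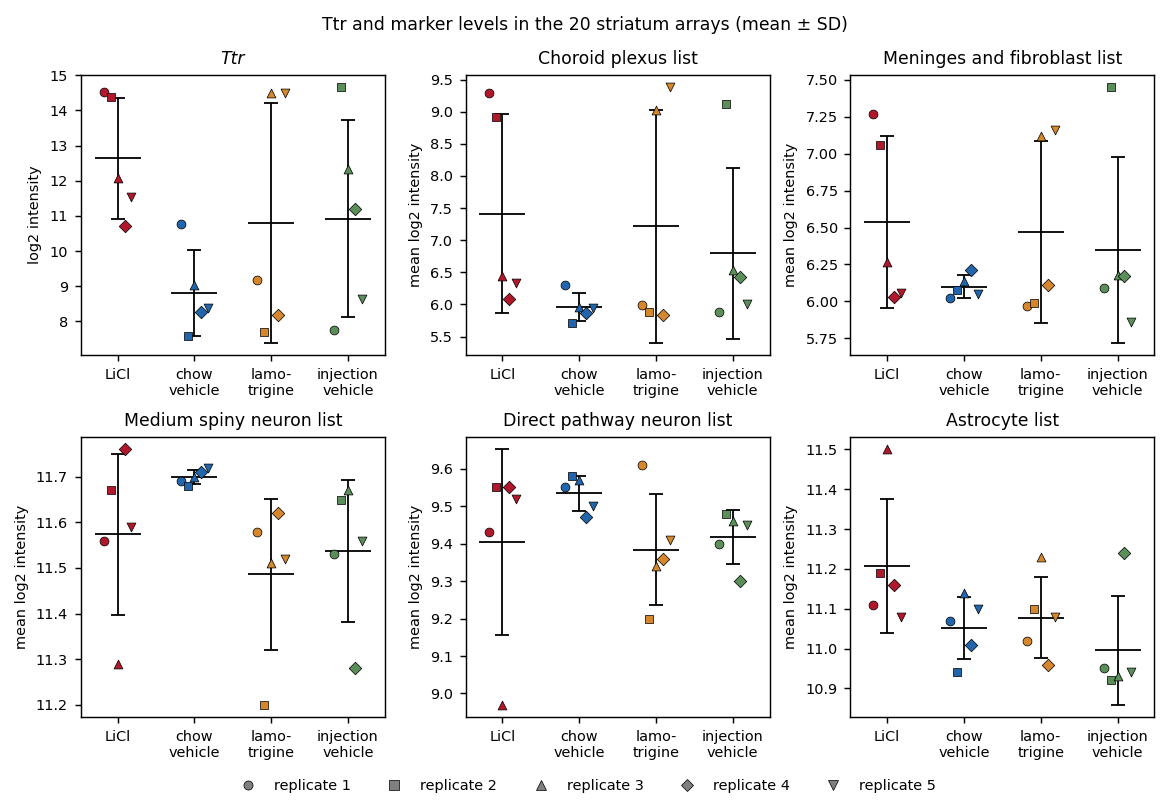
Level of Ttr and mean log2 intensity of 5 marker lists (vertical axes) in each of the 20 striatum arrays, by group on the horizontal axis. Points are arrays, with a symbol for each replicate number, horizontal lines are group means and bars are SDs. LiCl replicates 1 and 2 read 14.52 and 14.37 for Ttr, and LiCl replicate 3 read 8.97 for the direct pathway list, below the other LiCl and chow vehicle arrays.

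LiCl replicate 3 stood apart in another way. Its direct pathway list averaged 8.97, against 9.43 to 9.55 in the other LiCl arrays and 9.47 to 9.58 in chow vehicle. Its astrocyte list averaged 11.50 and its oligodendrocyte list 10.50, the highest of the 10 arrays for both. The same array had the largest 3' minus 5' difference of control probe sets, a measure of RNA quality (0.81). It also had the lowest quality weight (0.4) and the lowest median correlation with the striatum arrays (0.9855) of the 10. Whether RNA quality bears on its marker levels was not tested. Values without LiCl replicate 3, or without the arrays of high Ttr, are given where they turn a result or move it most. The second setting keeps LiCl replicates 3 to 5, so LiCl replicate 3 weighs more in it. In bulk tissue, fewer cells of a type and less RNA per cell cannot be told apart. Chow vehicle replicates 4 and 5 raise a question of identity. The numbers in the sample descriptions were read as animal numbers, and over 95 probe sets that vary between animals of the injection arm the array of animal 52 resembled the cortex array of animal 53 (r = 0.949) and not its own (r = -0.52), with the reverse for animal 53 (r = 0.884 with animal 52, -0.45 with its own). In these correlations the points are probe sets and deviations from group means, and all arrays share a chip design. Both arrays belong to the chow vehicle group under either number, so the comparison with LiCl is the same.

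No probe set passed an adjusted p of 0.05 in limma with Benjamini-Hochberg adjustment (0 of 31042, or 0%), and the lowest adjusted p was 0.074. At an unadjusted p of 0.05, 1443 probe sets (4.65%) had the higher mean in LiCl and 2385 (7.68%) the lower one. All 5 LiCl arrays lay above all 5 chow vehicle arrays in 404 probe sets (1.3%), and below them in 515 (1.66%). The median change over all probe sets was -0.02, and 61 probe sets differed by more than 2-fold. The mean was higher in LiCl in 13848 probe sets (44.6%) and lower in 17194. Counts of direction in the gene lists below are to be read beside that share. The spread in this fit came from all 20 striatum arrays. When the spread was estimated from all 60 arrays of the 3 regions, with the animal as a random block (a setting chosen after the data were seen), 104 probe sets passed (51 with the higher mean in LiCl and 53 with the lower), and with arrays weighted by quality 53 did. Of the 20 leading genes below, 13 passed with 60 arrays and 18 with array weights. These genes were chosen by the smallest p of the same contrast, so the counts are a description and not a test.

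The 20 genes with the smallest unadjusted p had adjusted p-values of 0.0767 to 0.136 in limma. The mean was higher in LiCl for 7 and lower for 13, by 0.29 to 0.73, and in 18 of the 20 the groups did not overlap. Eea1, which encodes an early endosome tether, read 6.83, 6.88, 7.05, 7.07 and 7.02 in LiCl replicates 1 to 5, against 6.47, 6.43, 6.44, 5.95 and 5.94 in chow vehicle. The change was 0.73 ± 0.12 (SE). All LiCl values lay within the range of the injected rats, 6.47 to 7.00, or just above it, and 4 of the 5 chow vehicle arrays lay below it. A second Eea1 probe set gave a change of 0.22 ± 0.08. C1qtnf4, a secreted protein of the C1q and tumour necrosis factor family, read 10.77, 10.66, 10.34, 10.58 and 10.63 in LiCl replicates against 10.89, 11.01, 10.95, 11.08 and 10.84 in chow vehicle, a change of -0.36 ± 0.07 with no overlap. Its 2 other probe sets gave -0.24 and -0.26. The change of C1qtnf4 was -0.44 without the 5 arrays of high Ttr, where LiCl replicate 3, its lowest array, weighs more.

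The other leading genes are given by known role. Genes of vesicles, endosomes and lysosomes besides Eea1 were Cplx2, a complexin that clamps synaptic vesicle fusion (change 0.36 ± 0.08), Borcs6, a subunit of the complex that positions lysosomes (-0.41 ± 0.08), and Atg4a, a protease of autophagosome formation (0.32 ± 0.07). Borcs6 read 6.85 to 7.11 in LiCl against 7.30 to 7.52 in chow vehicle. Genes of receptors and ligands were Tgfa, a ligand of the epidermal growth factor receptor (-0.41 ± 0.09), Kdr, a receptor of vascular endothelial growth factor (-0.35 ± 0.07), Gfra3, the artemin receptor (-0.38 ± 0.08), Icoslg, a T-cell costimulatory ligand (-0.36 ± 0.07), and Gabrd, the delta subunit of extrasynaptic GABA-A receptors (-0.44 ± 0.10). Kinase and lipid signalling was represented by Tab3, an adaptor of the kinase TAK1 (0.40 ± 0.07), and Plcd1, a phospholipase C that cleaves phosphoinositides (0.36 ± 0.08). Plcd1 read 7.51 to 7.75 in LiCl and 7.19 to 7.42 in chow vehicle. The others were Nr4a3 and Afg1l with the higher mean in LiCl, and Pdlim5, Cfap107, Fam13b, Lyzl6, Cyp2e1 and Csn2 with the lower. Of the 20 genes, 10 have more than 1 probe set, and in 4 of them another probe set had the opposite sign. For Kdr the brighter probe set gave 0.29 ± 0.18, opposite to the leading one, and for Gabrd the 2 brighter ones gave -0.23 and -0.01. In 8 of the 20 the mean level was under 6, where arrays are dim. All 20 kept their direction under every alternative in which they were tested. They were chosen by their p in these same arrays, so this is a description and not a test.

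**Figure D2:**
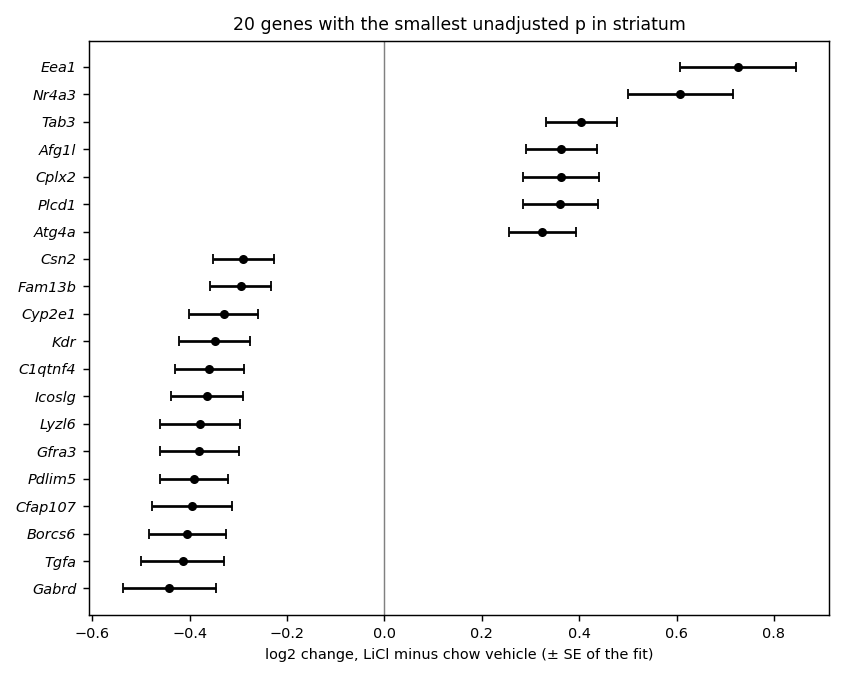
Log2 change, LiCl minus chow vehicle (horizontal axis, points, with bars for the SE of the fit), for the 20 genes with the smallest unadjusted p (vertical axis). Changes run to 0.73 for Eea1 and none passed the adjusted threshold.

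Immediate early genes, whose RNA rises within minutes of neuronal activity, split in the LiCl arrays. Of 26 measured, 14 had the higher mean in LiCl and 12 the lower, with a median change of 0.04 against -0.02 over all probe sets, and 0 passed the adjusted test. In 5 of the 26 every LiCl array lay above every chow vehicle array (1.3% of all probe sets did), and these were Fos, Arc, Ier2, Dusp1 and Jun. In 1, Fosl2, every LiCl array lay below (change -0.44 ± 0.19), as in 1.66% of all probe sets. Without the arrays of high Ttr 17 of the 26 had the higher mean and the median was 0.14.

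Fos, a subunit of the transcription factor AP-1, read 8.76, 9.17, 8.55, 9.91 and 9.78 in LiCl replicates 1 to 5, against 8.16, 7.91, 8.28, 7.79 and 7.70 in chow vehicle. The change was 1.26 ± 0.41 (adjusted p = 0.258 in limma). Arc, which encodes a protein of synaptic plasticity, read 9.15, 9.43, 9.20, 10.26 and 10.26 in LiCl, against 8.75, 8.68, 8.67, 8.55 and 8.55 in chow vehicle, a change of 1.02 ± 0.31 (adjusted p = 0.238). In both genes LiCl replicates 4 and 5 were the highest and chow vehicle varied little. Dusp1, a phosphatase that switches off MAP kinases, read 8.88, 9.12, 9.08, 9.24 and 9.37 in LiCl against 8.53, 8.63, 8.39, 8.38 and 8.64 in chow vehicle (change 0.62 ± 0.21), and its second probe set gave 0.61 ± 0.27. Ier2, a nuclear protein induced with Fos, read 6.30, 6.41, 6.80, 6.31 and 6.24 in LiCl against 5.51, 5.82, 5.86, 5.72 and 6.07 in chow vehicle (0.62 ± 0.17). Jun, the partner of Fos, had a change of 0.36 ± 0.13. LiCl replicates 1 and 2, which had the highest Ttr, read below replicates 4 and 5 for Fos, Arc and Dusp1 but not for Ier2. Leaving out the arrays of high Ttr keeps LiCl replicates 3 to 5. The changes were then 1.44 for Fos, 1.27 for Arc, 0.71 for Dusp1 and 0.65 for Ier2. Ttr was still higher by 2.63 in those LiCl replicates than in chow vehicle. A part of choroid plexus content in these changes was not tested. The spread that enters the test is shared with the injection arm, where Fos had an SD of 1.25 among lamotrigine arrays. With the 10 LiCl and chow vehicle arrays alone the unadjusted p of Fos was 0.000102 and that of Dusp1 1.06e-05 in limma, and their adjusted p-values were 0.152 and 0.107.

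Other immediate early genes did not follow. Egr1, a zinc finger transcription factor, read 11.66, 11.48, 11.41, 12.05 and 12 in LiCl against 11.76, 11.72, 11.80, 11.82 and 11.69 in chow vehicle. Nr4a1, an orphan nuclear receptor, read 9.01, 9.15, 9.08, 10.14 and 10.38 in LiCl against 9.93, 9.82, 9.81, 9.45 and 9.47 in chow vehicle. Egr2 read 8.24, 8.29, 7.86, 10.09 and 9.60 in LiCl against 8.97, 8.59, 8.79, 8.76 and 8.38 in chow vehicle. In all 3 genes LiCl replicates 4 and 5 lay above every chow vehicle array and LiCl replicates 1 to 3 below every one, so the LiCl group held both extremes. The 3 probe sets of Nr4a3 disagreed, with changes of -0.70 ± 0.28 and -0.39 ± 0.23 for the 2 brighter ones and 0.61 ± 0.11 for the one among the leading genes.

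**Figure D3:**
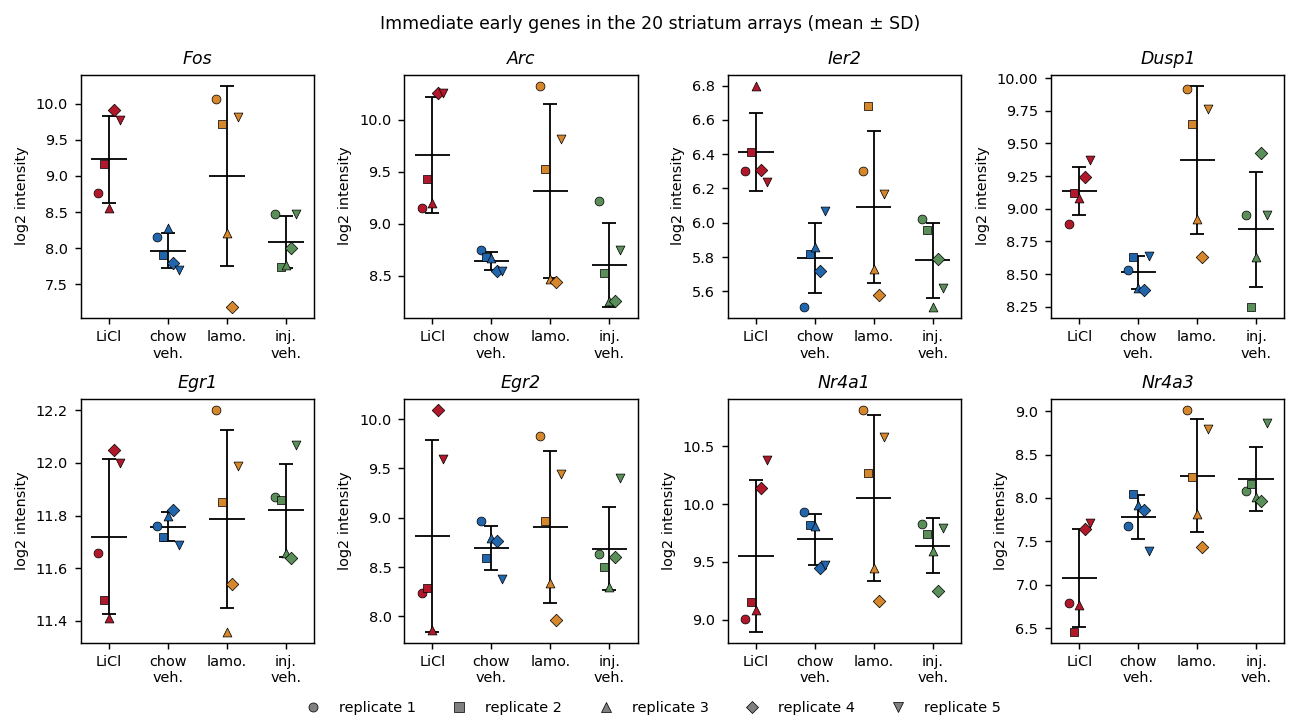
Log2 intensity (vertical axes) of 8 immediate early genes in the 20 striatum arrays, by group on the horizontal axis. Points are arrays with a symbol per replicate number, lines are means and bars are SDs. Fos, Arc, Ier2 and Dusp1 show every LiCl array above every chow vehicle array, with Fos at 8.55 to 9.91 against 7.70 to 8.28, while in Egr1, Egr2 and Nr4a1 LiCl replicates 4 and 5 lie above and replicates 1 to 3 below chow vehicle.

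Many immediate early genes are driven through the cAMP response element, an 8-base palindrome bound by CREB. The 250 bases before the annotated start were searched in the RefSeq promoters of the rat build GRCr8 for its full form, TGACGTCA. This form reads the same on both strands, so a search of a single strand covers both. It is held by 1.59% of all 33469 promoters in windows of that length. Of the 28 immediate early genes listed, 21 have a promoter there and 4 hold the element. They are Dusp1, Ier2, Jund and Btg2. Fos, Arc and Jun, which also lay higher in every LiCl array, have no promoter there and could not be searched. Btg2 was not among the measured genes. The windows of Dusp1 and Ier2 are shown because both genes separated the groups, on the plus strand of chr10:17184603-17184852 and chr19:40399123-40399372, with the element in capitals.
Dusp1: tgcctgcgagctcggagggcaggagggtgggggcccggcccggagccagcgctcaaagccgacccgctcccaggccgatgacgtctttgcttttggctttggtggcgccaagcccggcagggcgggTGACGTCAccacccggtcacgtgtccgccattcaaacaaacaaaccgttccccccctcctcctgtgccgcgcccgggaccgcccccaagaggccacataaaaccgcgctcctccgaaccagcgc
Ier2: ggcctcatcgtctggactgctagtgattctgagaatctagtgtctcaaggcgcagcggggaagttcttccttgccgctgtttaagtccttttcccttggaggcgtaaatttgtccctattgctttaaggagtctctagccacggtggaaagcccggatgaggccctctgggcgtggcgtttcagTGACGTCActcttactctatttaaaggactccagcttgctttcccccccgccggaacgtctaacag
Counted from the annotated start, the element begins at position -124 in Dusp1 and at -66 in Ier2. In Jund, an AP-1 subunit whose promoter also holds it, the level was 11.11 ± 0.12 in LiCl and 10.89 ± 0.27 in chow vehicle (change 0.22 ± 0.13). Egr1, Egr2 and Nr4a1 are among the searched genes that do not hold these letters in their windows. Shorter or variant forms were not searched, so an absence is also a description of sequence only. A match is a description of sequence and not evidence of a bound site.

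Genes of the striatum's own neurons had slightly lower means in LiCl, and LiCl replicate 3 carried much of this. Of 23 genes shared by medium spiny neurons, 19 had the lower mean, 5 of them at an unadjusted p of 0.05 (7.68% of all probe sets were lower at that p), and 1 of the 23 did not overlap between groups on the lower side (1.66% of all). The median change was -0.13, and without LiCl replicate 3 it was -0.04, with 2 genes lower at that p. Without the arrays of high Ttr, where LiCl replicate 3 weighs more, it was -0.20, with 20 of 23 lower. The direct pathway list had a median of -0.12 over 10 genes (9 lower), or -0.03 without that array (5 lower) and -0.17 without the arrays of high Ttr (10 lower), and the indirect pathway list -0.10 over 8 genes (6 lower), or -0.05 without LiCl replicate 3 and -0.07 without the arrays of high Ttr. No gene of these 3 lists passed the adjusted test.

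Ppp1r1b, or DARPP-32, which relays dopamine signals to protein phosphatase 1, read 12.94, 13.11, 12.78, 13.07 and 12.99 in LiCl, against 13.10, 13.15, 13.22, 13.17 and 13.26 in chow vehicle. The change was -0.20 ± 0.06 (adjusted p = 0.243 in limma), and 1 LiCl array lay within the chow vehicle range. Rgs9, which shortens dopamine receptor signalling, read 11.07 to 11.27 in LiCl against 11.34 to 11.47 in chow vehicle, a change of -0.19 ± 0.07 with no overlap, although its dimmer probe set gave 0.77. Gnal, the G protein that couples Drd1 to adenylyl cyclase, had a change of -0.28 ± 0.11, with 10.72 in LiCl replicate 3 and 11.33 to 11.62 in the other LiCl arrays, against 11.51 to 11.66 in chow vehicle. Without LiCl replicate 3 the change of Gnal was -0.13.

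Among the transmitter genes of the 2 pathways, Tac1 read 11.91, 11.96, 11.15, 12.35 and 12.42 in LiCl against 12.35, 12.41, 12.51, 12.19 and 12.31 in chow vehicle (change -0.40 ± 0.18, adjusted p = 0.384), and its change was -0.19 without LiCl replicate 3. The changes of Pdyn (-0.16 ± 0.13), Penk (-0.14 ± 0.08) and Adora2a (-0.06 ± 0.09) were within 2 SE. Drd1 differed by -0.16 ± 0.13 over all arrays, and by 0.01 without LiCl replicate 3, where it read 11.19. A dimmer Drd1 probe set averaged 10.08 ± 0.63 in LiCl and 10.57 ± 0.07 in chow vehicle (SD), with no overlap. It read 8.97 in LiCl replicate 3 and 10.28 to 10.43 in the other LiCl arrays, against 10.47 to 10.65 in chow vehicle. Drd2 differed by -0.04 ± 0.11. The muscarinic receptor Chrm4, an inhibitor of direct pathway cells, and the constitutively active receptor Gpr6 of indirect pathway cells had changes of -0.27 ± 0.12 and -0.32 ± 0.12. In both, LiCl replicate 3 was the lowest array, and without it the changes were -0.16 and -0.19.

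Neuropeptide genes had the lower mean in 20 of 24, with a median of -0.08, but in 13 of 24 with a median of -0.01 without the arrays of high Ttr. Markers of cortical neurons, of the neighbouring pallidum, septum and thalamus, and of blood had medians of -0.11, -0.07 and -0.03. Interneuron genes had a median change of -0.08 over 16 genes, with 11 lower, and the calcium-binding protein Calb2 (-0.27 ± 0.10) and tyrosine hydroxylase, Th (-0.23 ± 0.09), had the smallest p among them. Calb2 was lowest in LiCl replicates 1 and 2 (6.66 and 6.5), and its change was -0.12 without the arrays of high Ttr and -0.14 with choroid plexus level as a covariate. In dopamine and cAMP signalling 25 of 31 genes had the lower mean, 8 of them at an unadjusted p of 0.05 (7.68% of all probe sets were lower at that p), with a median of -0.12 (-0.04 and 6 genes without LiCl replicate 3). Rgs4, a brake on G protein signalling, read 11.24 to 11.67 in LiCl against 11.56 to 11.82 in chow vehicle (-0.24 ± 0.08). Ion channel genes were lower in 35 of 43, with a median of -0.10 (-0.04 without LiCl replicate 3) and 3 genes lower at that p, which is 3 of 43 beside 7.68% of all probe sets. Cacna1b, the pore of N-type calcium channels, and Scn2b, a sodium channel subunit, were among these, with changes of -0.24 ± 0.10 and -0.21 ± 0.09 and no overlap.

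The known targets of lithium showed small or no differences. Gsk3b, a glycogen synthase kinase 3 isoform, read 8.54, 8.61, 8.65, 8.87 and 8.69 in LiCl against 8.46, 8.23, 8.49, 8.64 and 8.57 in chow vehicle, a change of 0.19 ± 0.08 (adjusted p = 0.372 in limma) with overlapping groups. The other isoform, Gsk3a, differed by -0.06 ± 0.07. Impa1 and Impa2, the inositol monophosphatases, differed by -0.02 ± 0.09 and 0.20 ± 0.16. Inpp1, which removes a phosphate one step earlier, differed by 0.13 ± 0.09, and Bpnt1, a related phosphatase that lithium inhibits, by 0.01 ± 0.11. Levels of Impa1 lay between 8.84 and 9.26 in LiCl and between 9.0 and 9.28 in chow vehicle. RNA levels do not report on the enzymes' activity.

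In the wider inositol and phosphoinositide list 12 genes had the higher mean and 18 the lower, with a median of -0.01, and without LiCl replicate 3 the balance turned to 18 higher and 12 lower with a median of 0.04. Plcb4, a phospholipase C activated by G proteins, read 8.28, 8.32, 8.47, 8.28 and 8.39 in LiCl against 7.82, 7.99, 8.18, 8.02 and 8.06 in chow vehicle, a change of 0.34 ± 0.10 with no overlap, while its other probe set gave 0.05. Pi4ka, a kinase that makes the phosphoinositide precursor pool, had a change of -0.28 ± 0.11, again with no overlap, and Cds2, which makes CDP-diacylglycerol for inositol lipid synthesis, of -0.27 ± 0.08. The Wnt and GSK3 list had 13 genes with the higher and 14 with the lower mean and a median of 0.00, or 0.06 without LiCl replicate 3. Wnt2, a secreted ligand, read 5.84, 5.88, 5.93, 5.78 and 5.96 in LiCl against 6.36, 6.37, 6.29, 6.17 and 6.22 in chow vehicle, a change of -0.40 ± 0.10 (adjusted p = 0.17). Axin2, a feedback inhibitor that is itself a target of beta-catenin, read 7.46 to 8.04 in LiCl against 6.90 to 7.77 in chow vehicle (0.37 ± 0.16), and was highest in LiCl replicate 1. The list of beta-catenin targets had a median of 0.02 over 14 genes.

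**Figure D4:**
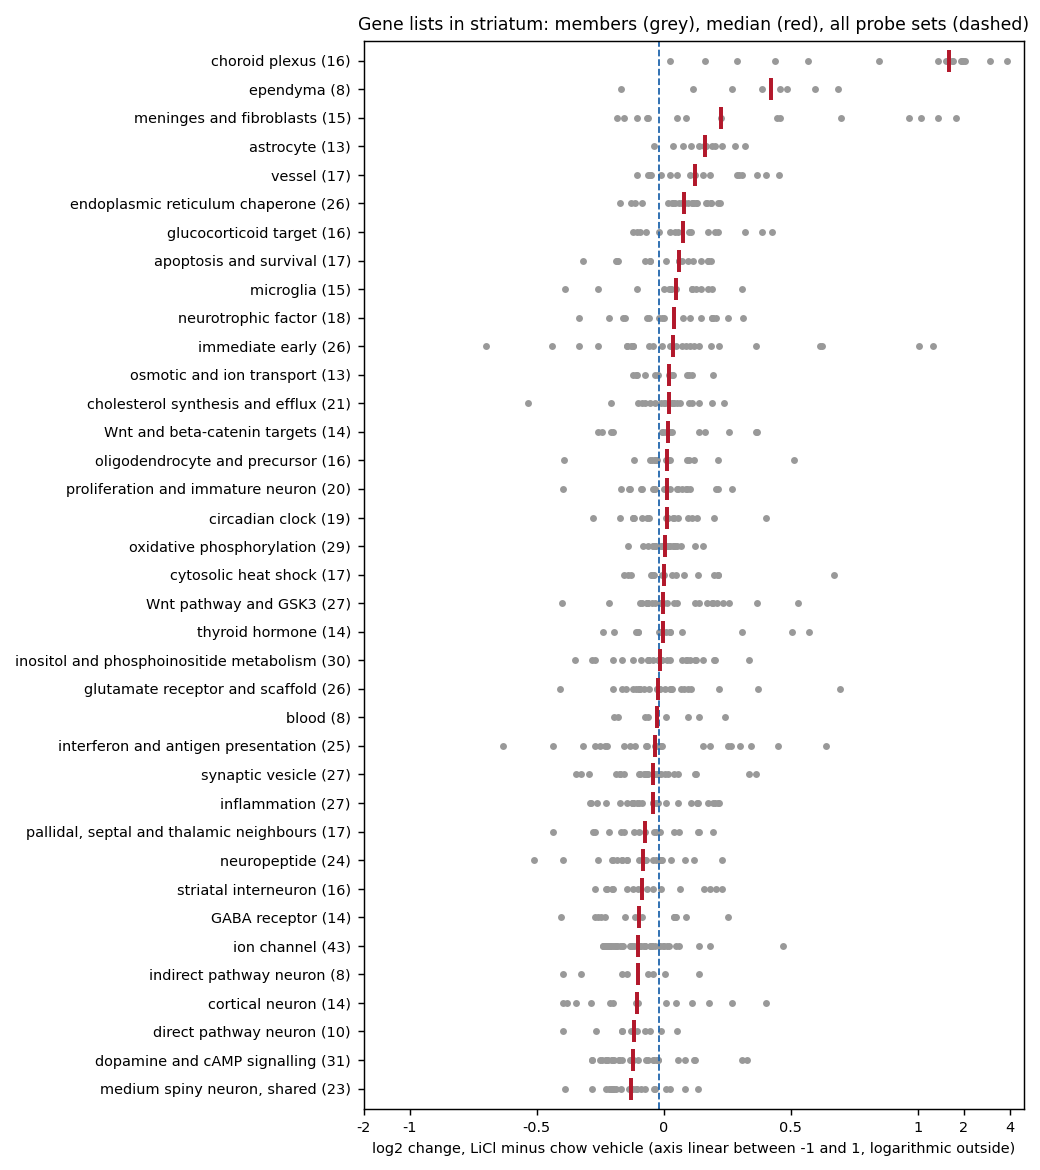
Log2 change, LiCl minus chow vehicle (horizontal axis, linear between -1 and 1 and logarithmic outside), of each measured member of 37 gene lists (grey points), with the list median in red and the number of genes in parentheses. The dashed line is the median over all probe sets, -0.02. The choroid plexus list lies farthest to the right with a median of 1.60, and the medium spiny neuron list farthest to the left with -0.13.

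Astrocyte genes leaned the other way, and other glial and vascular lists depended on single arrays. The astrocyte list had the higher mean in LiCl for 12 of 13 genes, 7 of them at an unadjusted p of 0.05 (4.65% of all probe sets were higher at that p), with a median of 0.16. Without LiCl replicate 3 the median was 0.10 with 3 genes at that p, and without the arrays of high Ttr it was 0.18 with 5. Glul, glutamine synthetase, read 12.29, 12.36, 12.53, 12.35 and 12.21 in LiCl against 11.96, 12.13, 12.17, 12.15 and 12.19 in chow vehicle, a change of 0.23 ± 0.07 (adjusted p = 0.222 in limma), with no overlap. Its 2 other probe sets gave 0.20 and 0.19. Aldh1l1, a folate enzyme that marks astrocytes, had a change of 0.28 ± 0.09 and the glycolytic Aldoc of 0.16 ± 0.06. The intermediate filament Gfap (-0.04) and the water channel Aqp4 (0.04) had changes near 0.

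Vessel genes had a median of 0.12 over 17, or 0.01 without LiCl replicate 3 and 0.22 without the arrays of high Ttr. Pdgfrb, the pericyte receptor, had a change of 0.31 ± 0.11 in its brightest probe set, with -0.18 and -0.13 in its others. Microglial genes had a median of 0.05 (12 of 15 higher), which turned to -0.05 without LiCl replicate 3 (6 higher) and was 0.19 without the arrays of high Ttr. Among them the purinergic receptor P2ry12 read 9.40, 9.03, 9.25, 9.42 and 9.22 in LiCl against 9.05, 9.04, 8.92, 8.98 and 8.78 in chow vehicle (0.31 ± 0.10). The oligodendrocyte list had a median of 0.01, which turned to -0.07 without LiCl replicate 3. Ependymal genes, of the ciliated lining of the ventricles, had a median of 0.42 (7 of 8 higher) and genes of meninges and fibroblasts 0.22 (10 of 15 higher). Without the arrays of high Ttr these medians were 0.16 and 0.00, and that of the choroid plexus list was 0.17. Decorin, Dcn, a matrix proteoglycan of meninges, read 8.07, 7.28, 6.98, 6.73 and 6.99 in LiCl against 6.30, 6.97, 6.39, 6.52 and 6.38 in chow vehicle (0.70 ± 0.29), and its change was 0.39 without the arrays of high Ttr.

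Thyroid hormone handling held 2 of the larger changes among the lists. Dio2, the deiodinase by which astrocytes make active thyroid hormone, read 6.25, 6.05, 5.82, 5.79 and 5.29 in LiCl against 5.19, 5.07, 5.35, 5.23 and 5.50 in chow vehicle. Its change was 0.57 ± 0.13 (adjusted p = 0.147 in limma), and 4 of the 5 LiCl arrays lay above every chow vehicle array. Without LiCl replicate 5, the LiCl array within the chow vehicle range, the change was 0.71. It then passed the adjusted test (adjusted p = 0.0194 in limma). Dio2 also passed with 60 arrays (adjusted p = 0.0244), but under no other alternative in which it was tested. Without the arrays of high Ttr the change was 0.37. The injected rats read 5.94 to 6.29, above every chow vehicle array. Slco1c1, a carrier of thyroxine at the brain's barriers, read 10.48, 10.35, 10.38, 10.06 and 9.87 in LiCl against 9.74, 9.74, 9.60, 9.83 and 9.70 in chow vehicle, a change of 0.51 ± 0.19 with no overlap. In both genes LiCl replicate 1, which also had the highest Ttr, was the highest array, and with choroid plexus level as a covariate the change of Dio2 was 0.49 and that of Slco1c1 0.24. Without the arrays of high Ttr Slco1c1 differed by 0.38. The hormone receptors Thra and Thrb differed by 0.02 and 0.03, and the list's median was 0.00 over 14 genes.

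Of the immune lists, inflammation had 17 of 27 genes with the lower mean, 5 of them at an unadjusted p of 0.05 (7.68% of all probe sets were lower at that p), and a median of -0.04. Without the arrays of high Ttr 14 were lower, 1 of them at that p, and the median was -0.01. Socs3, a feedback inhibitor of cytokine signalling, read 5.19 to 5.45 in LiCl against 5.55 to 5.66 in chow vehicle (-0.26 ± 0.07, no overlap). The chemokine genes Cxcl10 and Ccl4 had changes of -0.29 ± 0.10 and -0.23 ± 0.09 at dim levels. In the interferon and antigen presentation list the changes went both ways, with Irf1 at 0.27 ± 0.09, Bst2 at 0.64 ± 0.22 and Ifit3 at -0.32 ± 0.10. Chow vehicle replicate 5 stood apart there, with a list level of 6.96 against 6.13 to 6.26 in the other chow vehicle arrays.

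Synaptic genes other than Cplx2 included Gria1, an AMPA receptor subunit, which read 9.27, 9.13, 8.98, 9.18 and 9.06 in LiCl against 8.83, 8.74, 8.77, 8.70 and 8.71 in chow vehicle (0.37 ± 0.10, adjusted p = 0.214 in limma). The groups did not overlap. Unc13c, a priming factor of synaptic vesicles, had a change of 0.34 ± 0.12. The probe sets of Camk2a, the alpha subunit of the plasticity kinase CaMKII, disagreed. The brightest ranged from 9.32 to 10.66 in LiCl and from 8.82 to 10.27 in chow vehicle, a change of 0.69 ± 0.27 with wide overlap. A dimmer probe set read 8.63 to 8.89 in LiCl against 8.08 to 8.54 in chow vehicle, with no overlap. The remaining ones averaged 8.70 and 6.63 in LiCl against 8.67 and 6.54 in chow vehicle. The lists of glutamate receptors, synaptic vesicles and GABA receptors had medians of -0.02, -0.04 and -0.10. Chaperones of the endoplasmic reticulum had the higher mean in 22 of 26 genes with a median of 0.08, yet 0 reached an unadjusted p of 0.05. Manf, a secreted stress factor, had the smallest p among them, with 0.18 ± 0.09. The glucocorticoid target list had a median of 0.08 over 16 genes. Clock genes had a median of 0.01, and Dbp, an output factor of the clock, read 9.96 to 10.34 in LiCl against 10.37 to 10.50 in chow vehicle (-0.28 ± 0.11, no overlap). Mt2A, a metallothionein induced by glucocorticoids and metals, read 9.84 to 10.32 in LiCl against 9.54 to 9.75 in chow vehicle (0.39 ± 0.13). Heat shock, cholesterol, oxidative phosphorylation, apoptosis, neurotrophic factor, osmotic transport and proliferation lists had medians between 0.00 and 0.06, and between -0.06 and 0.10 with either set of arrays left out.

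Whether the effect of LiCl in striatum differed from that in the other regions was tested in a fit of all 60 arrays. The animal was a random block in that fit. Against the hippocampus, 4 probe sets (0.0129%) passed. Pkib, an inhibitor of protein kinase A, read 4.14, 4.14, 4.45, 3.81 and 4.60 in LiCl striatum against 3.80, 3.78, 4.19, 3.79 and 4.05 in chow vehicle striatum. In the hippocampus it read 5.57 to 6.12 in LiCl against 6.60 to 7.15 in chow vehicle. The difference between the regional effects was 1.25 ± 0.19 (adjusted p = 0.000397 in limma), and it was 1.16 to 1.36 under the alternatives in which it was tested. In striatum both groups were dim, and its second probe set gave 0.97 ± 0.20 (adjusted p = 0.0649). Reg3a, a secreted lectin, read 3.67 to 4.35 in LiCl striatum against 4.36 to 4.98 in chow vehicle striatum. In the hippocampus it averaged 3.90 ± 0.13 in LiCl and 3.66 ± 0.18 in chow vehicle. All these levels of Reg3a were dim. No probe set with the lower effect in striatum, Reg3a included, passed without LiCl replicate 3 or without chow vehicle replicate 2 or 3. The other 2 probe sets are unnamed here.

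Against the cortex, 3696 probe sets passed (11.9%), 1199 with the higher effect in striatum and 2497 with the lower one. With dim probe sets left out 1418 passed, 882 higher and 536 lower, so the balance of directions turned with that filter. Leading named genes were Pdlim5, Rpia, Eln, Nfatc4 and Zfp423. Pdlim5, a cytoskeletal adaptor, averaged 4.57 ± 0.06 in LiCl and 4.96 ± 0.09 in chow vehicle striatum, but 5.13 ± 0.14 in LiCl and 4.60 ± 0.09 in chow vehicle cortex, a difference of -0.92 ± 0.11 (adjusted p = 6.37e-07 in limma). Rpia, an enzyme of the pentose phosphate pathway, averaged 7.48 ± 0.13 in LiCl and 7.83 ± 0.14 in chow vehicle striatum, against 7.96 ± 0.15 and 7.46 ± 0.07 in the cortex. Eln, Nfatc4 and Zfp423 had the same opposed pattern, with differences of -0.86, -0.71 and -0.76. Among the 20 leading striatal genes 15 differed from the cortex and 0 from the hippocampus at an adjusted p of 0.05. Since these genes were chosen by the striatal change, which is one term of each difference, these counts are a description and not a test. C1qtnf4 was not among the 15, and its leading probe set averaged 10.60 ± 0.16 in LiCl and 10.96 ± 0.09 in chow vehicle striatum, and 10.83 ± 0.07 and 11.11 ± 0.03 in the cortex.

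Fos and Arc also differed from the cortex, 2 of the 26 immediate early genes measured, beside 11.9% of all probe sets. Both separated the groups in striatum, and that change is part of each difference, so these results are a description and not a test. Fos averaged 9.23 ± 0.60 in LiCl and 7.97 ± 0.24 in chow vehicle striatum, and 9.54 ± 0.18 in LiCl and 9.86 ± 0.31 in chow vehicle cortex. The difference of the effects was 1.58 ± 0.43 (adjusted p = 0.0109 in limma), and it passed under each of the 15 alternatives tried (adjusted p up to 0.0368). For Arc the difference was 1.00 ± 0.33 (adjusted p = 0.0358), and 6 of the 15 alternatives left it at 0.0502 to 0.119. Against the hippocampus neither difference passed: Fos differed by 1.21 (adjusted p = 0.545) and Arc by 0.29 (adjusted p = 0.918). Arc read 9.08 to 9.60 in LiCl hippocampus against 8.43 to 8.61 in chow vehicle hippocampus, with no overlap.

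**Figure D5:**
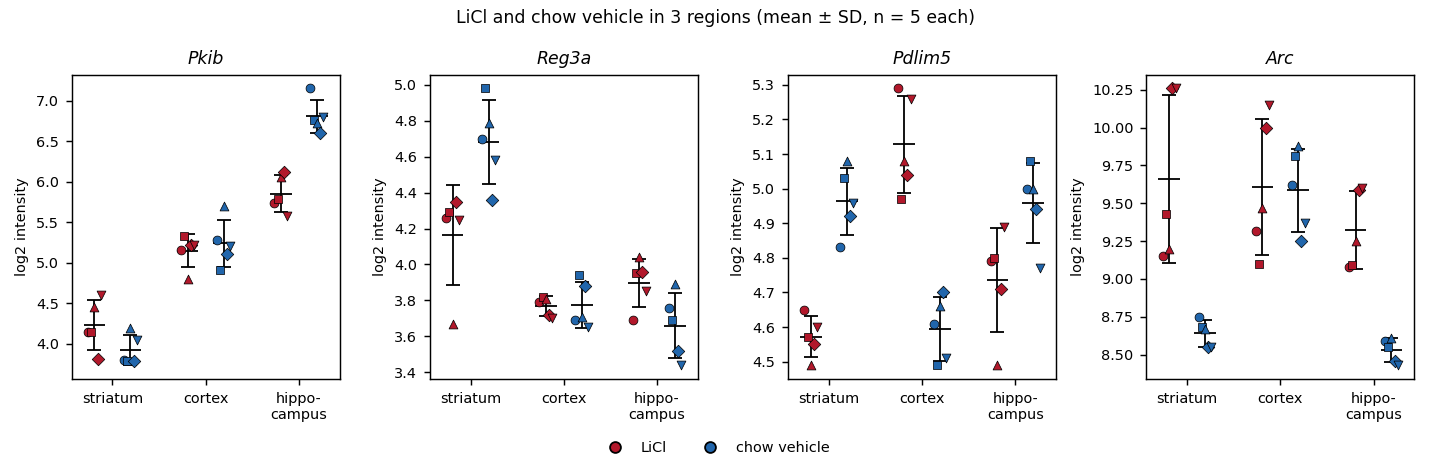
Log2 intensity (vertical axes) of Pkib, Reg3a, Pdlim5 and Arc by region (horizontal axis), with LiCl arrays in red left of chow vehicle arrays in blue. Points are arrays, lines are means and bars are SDs (n = 5 per group). In the hippocampus Pkib lies lower in LiCl, at 5.57 to 6.12 against 6.60 to 7.15, and Pdlim5 is lower in LiCl striatum and higher in LiCl cortex than in chow vehicle.

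The effect of LiCl was also set against that of lamotrigine, each relative to its own vehicle in striatum. No probe set passed (0%), 2485 had an unadjusted p under 0.05, and the lowest adjusted p was 0.283 in limma. For Eea1 the LiCl effect was 0.73 and the lamotrigine effect 0.01, a difference of 0.72 ± 0.17 (adjusted p = 0.393). For C1qtnf4 the effects were -0.36 and 0.18, a difference of -0.54 ± 0.10 (adjusted p = 0.283). Fos, at 1.26 for LiCl and 0.91 for lamotrigine, and Arc, at 1.02 and 0.71, differed between the drugs by 0.35 ± 0.58 and 0.31 ± 0.43 (SE), which neither separates the effects nor shows them to be alike.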

How the data were processed

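Total RNA was extracted with Trizol, labelled as biotinylated cRNA and hybridised to Affymetrix arrays. The authors made the deposited values with RMA in R 2.7.2, per the submitters' processing notes. RMA subtracts background, brings arrays to 1 distribution and combines the probes of a set. The deposited table holds linear intensities from 6.93 to 28582.45, and log2 was taken here with no pseudocount. Normalization between arrays can hide a shift shared by most probe sets of a group and can spread a gap in array quality over many dim ones. The sources used here do not state which arrays were normalized jointly. Median intensities of the 20 striatum arrays lay between 94.6 and 99.4, and no 2 arrays were identical. The number of arrays, 5 per group, limits the precision.

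Of 31099 probe sets, 57 controls were left out. Symbols came from the platform's annotation, which can be old, and 1 symbol was found for 20826 probe sets (14217 genes), several for 436, and none here for 9780. Entrez IDs of 20758 matched the RefSeq table of GRCr8. A gene in a list was represented by its brightest probe set over the 20 striatum arrays, and 82 list entries had none.

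Groups came from the labels. The 20 striatum arrays were fitted with limma 3.58.1 in R 4.3.3 (lmFit, eBayes with an intensity trend, 1 mean per group), and p-values were adjusted over the 31042 probe sets by Benjamini-Hochberg. Differences between regions came from 60 arrays in which the animal was a random block, with a consensus correlation of 0.133. Tests were two-sided. Nothing but the description numbers says that samples of a group are separate animals, so p-values measure the spread between these samples. Scripts were tested on simulated data.

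Named were the 20 genes of smallest p (none passed), the leading members of each list, lithium targets, striatal markers, and Ttr, Pkib, Nr4a3, Arc, Txnip and the 5 leading genes of each region difference. Of these Txnip differed by 0.21 ± 0.13. Second probe sets, Fosl2, Jund, Egr1, Egr2, Nr4a1, Dusp1, Thra, Thrb, Gfap and Aqp4, and the choroid genes besides Ttr were added after their values were seen. The members and the 37 lists were chosen with earlier results of these data known. Alternatives covered normalization, array spread, choroid plexus level, RNA quality, dim probe sets, the trend, array weights, the replicate block and each array left out.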

Additional observations from a re-analysis of the deposited data

Results flagged for a closer look

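In 344 groups of 5 arrays, made of the named genes and the list levels, 22 held an array that lay apart from the others of its group by Dixon's ratio, where chance gives about 1 in 20. LiCl replicate 3 accounted for 10 of the 22. It was low in Tle4 (9.66, next 10.15), Grm7 (6.02, next 6.97), Cacna1b (8.01), Impa1 (8.84) and Drd1 (11.19, next 12), and in the list levels of direct pathway neurons (8.97), inositol metabolism (9.04) and dopamine signalling (9.53). It was high in the list levels of astrocytes (11.50) and oligodendrocytes (10.50). The other LiCl arrays set apart were replicate 2 in Afg1l (7.91, high) and Gfra3 (5.40, low) and replicate 1 in Pdia6 (10.87, high).

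In chow vehicle, replicate 5 was high in Irf1 (6.72) and in the list levels of microglia (8.41) and of interferon and antigen presentation (6.96, next 6.26). Replicate 1 was high in Cfap107 (4.75) and low in Glul (11.96), replicate 4 was low in Slc4a1 (5.94) and Nrg1 (5.85), replicate 3 was high in Fdps (10.16), and replicate 2 was low in the thyroid hormone list level (9.0).

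Effects that differed between regions by the test of the difference were those of Pkib (1.25), Reg3a (-0.75) and 2 unnamed probe sets (1.03 and -0.44) in striatum relative to the hippocampus. Relative to the cortex they were those of Pdlim5 (-0.92), Rpia (-0.85), Eln (-0.86), Nfatc4 (-0.71) and Zfp423 (-0.76). Reg3a was dim, and its difference did not pass without LiCl replicate 3 or without chow vehicle replicate 2 or 3.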

How the results depend on the processing

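The number of probe sets passing in striatum was 0 as reported and 2 with array spread as a covariate (1 of them C1qtnf4), 3 without the intensity trend (Eea1, Tab3 and 1 unnamed), 53 with array weights and 104 with all 60 arrays. Of the 20 leading genes, which were chosen by the same contrast, 13 passed in the last. That fit, the exchange of animals and the array removals for Ttr, the choroid plexus list and the list medians were chosen after the data were seen. With 1 array left out the count was 0 to 8, and the 8 came without LiCl replicate 5. It was 0 with the title number as a replicate block; the deviations of same-numbered arrays correlated between -0.052 and 0.143, so the numbers do not pair the arrays. The difference from lamotrigine had 1 probe set, C1qtnf4, with array spread as a covariate. Against the cortex, 1516 probe sets passed with quantile normalization, 1418 without dim probe sets, 2333 with per-animal differences (2737 with animals 52 and 53 exchanged), and 2328 (without LiCl replicate 1) to 4543 with 1 array left out, while that exchange gave 3719 in the full fit. Against the hippocampus 1 passed without dim probe sets and 1 to 7 with 1 array left out, with 2 or fewer without LiCl replicate 3 or chow vehicle replicates 2 or 3. Without LiCl replicates 1 and 2, Ttr differed by 2.63 and the choroid plexus list by 0.33 (exact p = 0.0536 and 0.0893). With 1 array left out Ttr differed by 3.36 to 4.32 (exact p at most 0.0238) and the list by 0.984 to 1.78, and without any 1 of the chow vehicle arrays the list's exact p was 0.0873 to 0.135. Impa1 (-0.02) turned to 0.0176 with choroid plexus level, 0.0127 with RNA quality and 0.0214 with array weights, and ranged from -0.0557 to 0.0488 with 1 array left out. Bpnt1 (0.01) turned to -0.0065 with quantile normalization, -0.0093 with centring, -0.16 with array spread, -0.13 with choroid plexus level and -0.12 without high Ttr, and ranged from -0.0457 to 0.0843 with 1 array left out. With 1 array left out the brighter Drd1 probe set ranged from -0.223 to 0.0111 and Drd2 from -0.0822 to 0.0074. The upper ends were without LiCl replicate 3. The causes were not tested. With 5 arrays a group, and dim levels in 8 of the 20 leading genes, small changes are not resolved.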
